A study of Mus musculus with 6 samples.

Results

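The ligand and receptor genes of the platelet-derived growth factor (PDGF) and KIT systems were followed through passaging of mouse embryonic fibroblasts (MEFs). The members were the 9 genes Pdgfa, Pdgfb, Pdgfc, Pdgfd, Pdgfra, Pdgfrb, Pdgfrl, Kit and Kitl, taken by gene symbol from a table of 21988 genes, and all 9 were found there. Of these, 8 reached a TPM of at least 1 (an abundance scaled to transcript length and library total) in at least 2 libraries and were tested, among 13332 genes tested in all. Kit was below that limit and was left out of that fit.

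PDGFs are secreted dimers that bind receptor tyrosine kinases on mesenchymal cells and drive their division, migration and survival. The A and B chains are cut before secretion, whereas the C and D chains leave the cell with an inhibitory CUB domain that proteases outside the cell remove. Fibroblasts carry both PDGF receptors, and serum is a classical source of PDGF for cells in culture. KIT, a receptor kinase of the same class, is known from mast cells, melanocytes, germ cells and blood progenitors, and its ligand KITL (stem cell factor) is made by stromal cells such as fibroblasts.

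The cells were C57BL/6 MEFs from embryos of day 13.5, grown in medium with 10% fetal bovine serum and harvested at population doubling (PD) 2, 8 and 14. The labels name no altered gene and no added agent in any group. Each group had 2 libraries, 1 from rRNA depletion (strand-specific) and 1 from poly(A) selection, so replicate number and library method are the same thing. The labels do not say whether the libraries came from separate embryos or cultures. Library method is a block in the fit, so the p-values below rest on how far passage changes differ between the 2 methods. That spread, moderated across genes, covers only these 6 samples and may be technical.

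Listed TPM summed to between 937217 and 950531 in the rRNA-depleted libraries and to 1000000 in each poly(A) library, and read depth is unknown because TPM carry no read numbers. All 14 fibroblast markers were at 1 TPM or more in every library. Their median change from PD2 to PD14 was 0.30 on the log2 scale. At a limma adjusted p under 0.05, 4 were higher and 0 lower, against 6.41% and 4.77% of all genes. The largest values were those of the proteoglycan genes Lum (1.92 ± 0.27) and Dcn (1.72 ± 0.18). The standard error follows ±, with n = 2 libraries a group, as for all log2 changes below. Lower fitted values that did not pass were those of Twist2 (-1.11 ± 0.33; 1477 bases shared with the antisense gene Gm29100), Fap (-1.005 ± 0.35), Thy1 (-0.70 ± 0.35) and Prrx1 (-0.043 ± 0.13). The fitted values of all other fibroblast markers were positive. All 12 proliferation genes fell, with a median of -1.69 and the largest values in Mki67 (-2.18 ± 0.25) and Ccna2 (-2.16 ± 0.30; 510 exon bases shared with Exosc9 on the other strand). In bulk samples, fewer cells of a type and less RNA per cell cannot be told apart, and the part of a changed cell mixture or of slower division in the values below was not tested.

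RefSeq start windows on GRCm38.p6 were at hand for 6 of the 9 members. The 250 bases before the RefSeq start are printed 5′ to 3′ for Pdgfd, Pdgfc and Pdgfra, the 3 whose windows lie wholly outside the gene as GENCODE annotates it, to show the letters ahead of 2 ligand genes and 1 receptor gene whose values are followed below. Capitals mark matches to the letters of the TATA box (TATAAA) and of C/EBP-type sites (TTNNGNAA), each searched on both strands.
Pdgfd: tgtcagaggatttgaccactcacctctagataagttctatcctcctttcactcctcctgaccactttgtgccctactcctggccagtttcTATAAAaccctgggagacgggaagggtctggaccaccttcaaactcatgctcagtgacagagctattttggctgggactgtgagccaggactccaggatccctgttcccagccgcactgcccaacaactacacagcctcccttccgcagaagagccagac
Pdgfc: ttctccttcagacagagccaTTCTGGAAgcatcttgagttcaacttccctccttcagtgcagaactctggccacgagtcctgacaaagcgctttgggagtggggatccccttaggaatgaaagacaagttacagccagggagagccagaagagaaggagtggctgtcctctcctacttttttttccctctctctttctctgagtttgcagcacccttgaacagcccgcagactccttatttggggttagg
Pdgfra: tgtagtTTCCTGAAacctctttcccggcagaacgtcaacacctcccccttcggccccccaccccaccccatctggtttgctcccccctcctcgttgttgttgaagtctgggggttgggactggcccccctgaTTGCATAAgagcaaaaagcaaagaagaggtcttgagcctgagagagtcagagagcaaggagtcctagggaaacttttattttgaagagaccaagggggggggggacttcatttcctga
The windows are chr9:6168236-6168485 for Pdgfd, chr3:81036166-81036415 for Pdgfc and chr5:75152001-75152250 for Pdgfra, all on the plus strand. The Pdgfc window ends next to the GENCODE start, while 98 bases lie between window and GENCODE start for Pdgfd and 41 for Pdgfra.

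Pdgfd had 3 CpG dinucleotides and a TATAAA match between bases -160 and -155 counted from the RefSeq start. Pdgfc also had 3 CpG dinucleotides, with 1 C/EBP-type match between -230 and -223. Pdgfra had 4 CpG dinucleotides and 2 C/EBP-type matches, between -244 and -237 and between -118 and -111. More CpG dinucleotides were present in 61.9% of 27025 RefSeq windows of the same length, 1 for each gene, than in those of Pdgfd and Pdgfc, and in 55.5% than in that of Pdgfra. The Kitl window (chr10:100015571-100015820) held 23, a number exceeded by 11.7% of windows, but 191 of its 250 bases lie inside the gene as GENCODE annotates it, and it is not printed. The Kitl window had a TATAAA match between -25 and -20. It also had matches to GGGCGG, on either strand, between -143 and -138, -45 and -40, and -41 and -36. Windows of Kit held 17 and 18 CpG dinucleotides and those of Pdgfa 19 and 28, with GGGCGG matches for both genes. Pdgfa also had a C/EBP-type match between -162 and -155. These windows lie partly (Kit) or wholly (Pdgfa) inside the gene as GENCODE annotates it and are not printed. A TATAAA match was present in 13.0% of all windows and a C/EBP-type match in 36.9%. GC boxes (GGGCGG, in 32.9% of windows), CCAAT boxes (CCAAT, in 34.5%) and AP-1 sites (TGANTCA, in 6.87%) had no match in the 3 printed windows. The matches describe the letters and do not show binding.

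Over the whole span from PD2 to PD14, 1 of the 8 tested members passed the test (limma on log2(TPM + 1), Benjamini-Hochberg adjusted p under 0.05), against 11.2% of all genes tested (6.41% higher and 4.77% lower). It was Pdgfrl, which encodes a secreted protein that resembles the extracellular part of a PDGF receptor and has no kinase domain. The ligand genes Pdgfd and Kitl came close to the threshold with changes of similar size, and Pdgfc was lower in both library methods. The receptor genes Pdgfra and Pdgfrb and the ligand genes Pdgfa and Pdgfb had smaller fitted values. The median change was 0.31 over the 8 members and 0.06 over all genes, both on the scale of log2(TPM + 1). The called genes were 854 higher and 636 lower, against 736 higher and 834 lower under quantile normalization, where Pdgfrl was again the single call among the members.

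**Figure D1:**
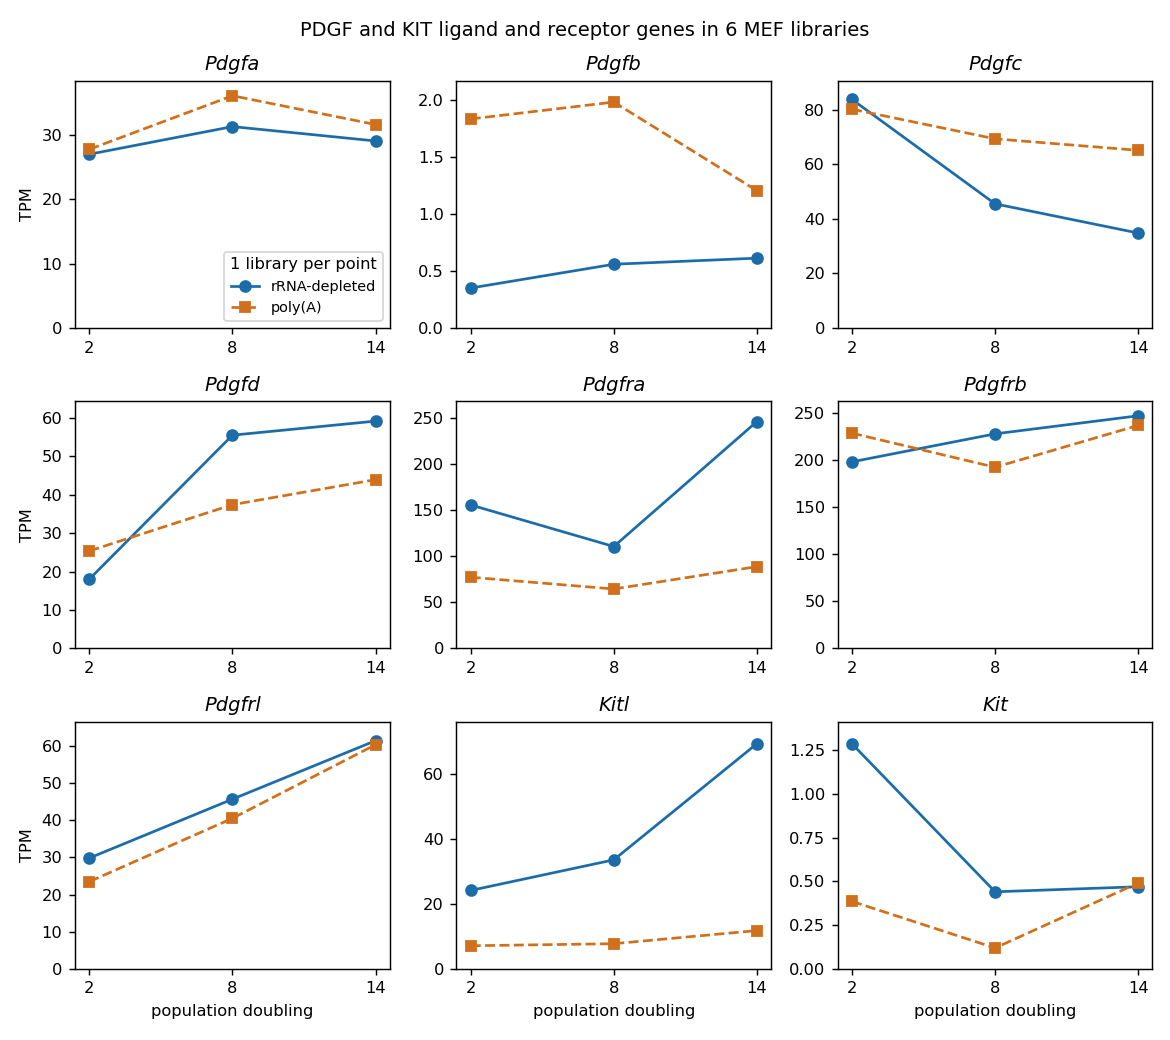
TPM of each of the 9 genes (vertical axes, linear from 0, scaled per gene) at population doubling 2, 8 and 14 (horizontal axes), with 1 library per point, circles for rRNA-depleted and squares for poly(A) libraries. Pdgfrl climbs in both methods and ends at 61.4 and 60.4 TPM, Kitl lies far higher in the rRNA-depleted libraries, and Kit and Pdgfb stay under 2 TPM throughout.

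Among the PDGF ligands, Pdgfc was the most abundant at PD2 and Pdgfd the one with the largest change. Pdgfc, on chromosome 3 (81036416 to 81214040 on mm10), encodes PDGF-C, a latent ligand that acts mainly through the alpha receptor. Its TPM were 83.7, 45.5 and 34.8 over PD2, PD8 and PD14 with rRNA depletion. In the poly(A) libraries they were 80.2, 69.3 and 65.1. Both PD14 libraries were below both PD2 libraries, and the difference was far wider in the rRNA-depleted pair (-1.24) than in the poly(A) pair (-0.30). The fitted change of -0.77 ± 0.24 had an adjusted p of 0.101 in limma, so Pdgfc did not pass; without the PD2 poly(A) library it was at -1.17 (adjusted p = 0.0204), and leaving out each of the other 5 gave -0.37 to -1.08 with an adjusted p of at least 0.119. A total of 147 bases of its exons lie across from the antisense gene Gm16000, and since no source used here says whether reads were counted by strand, its value is uncertain there, most of all in the poly(A) libraries.

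Pdgfd, on chromosome 9 (6168584 to 6378850), encodes PDGF-D, a latent ligand of the beta receptor. It had 18.1, 55.5 and 59.2 TPM over PD2, PD8 and PD14 with rRNA depletion and 25.4, 37.4 and 43.9 TPM with poly(A) selection. Every PD8 and PD14 library was above both PD2 libraries. The PD14 against PD2 change was 1.21 ± 0.28, at 1.66 in the rRNA-depleted pair and 0.77 in the poly(A) pair, and 5.09% of all genes had a larger rise. Its adjusted p was 0.0525, on the other side of the threshold of 0.05, and 0.0491 when genes had to reach 1 TPM in all 6 libraries. Without the PD2 poly(A) library the change was 1.69 (adjusted p = 0.00891), while leaving out any of the other 5 libraries gave 0.73 at the lowest and an adjusted p of 0.186 at the highest. Most of the difference lay before PD8: PD8 against PD2 was at 1.06 ± 0.28 and PD14 against PD8 at 0.16 ± 0.28, although the difference between these steps had an adjusted p of 0.9996 (unadjusted p = 0.117).

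Pdgfa, on chromosome 5 (138976014 to 138997370), encodes the A chain, a ligand of the alpha receptor. It kept a narrow range, with 27.0, 31.3 and 29.1 TPM with rRNA depletion and 27.8, 36.1 and 31.7 TPM with poly(A) selection over the 3 passages. The PD14 libraries lay just above the PD2 libraries in both methods, with a fitted change of 0.14 ± 0.14 (adjusted p = 0.528) and a 95% interval from -0.22 to 0.50. Its exons share 813 bases with the antisense gene 6330403L08Rik, which makes its values uncertain. Pdgfb, on chromosome 15 (79995874 to 80014977), encodes the B chain, which binds both receptors and is made chiefly by endothelial cells and platelets. It was near the limit of the test in every library, at 0.350, 0.559 and 0.612 TPM with rRNA depletion and 1.83, 1.98 and 1.20 TPM with poly(A) selection. The methods gave opposite signs (0.26 and -0.36) and the fit gave -0.05 ± 0.29 (adjusted p = 0.917), with the direction turning to 0.047 when 0.1 was added to TPM in place of 1.

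The summed TPM of the 4 ligand genes hardly moved while its make-up did. The sum was 129 at PD2, 133 at PD8 and 124 at PD14 with rRNA depletion and 135, 145 and 142 with poly(A) selection. Pdgfc made up 64.8%, 34.2% and 28.1% of it over PD2, PD8 and PD14 with rRNA depletion and 59.3%, 47.8% and 45.9% with poly(A) selection. Pdgfd made up 14.0%, 41.8% and 47.9% with rRNA depletion and 18.8%, 25.8% and 31.0% with poly(A) selection. The ratio of Pdgfc to Pdgfd was therefore lower at each later passage in both methods, at 4.64, 0.819 and 0.588 with rRNA depletion and 3.16, 1.85 and 1.48 with poly(A) selection. These shares are descriptions of 6 libraries, with no test. Pdgfa stayed between 20.6% and 24.95% and Pdgfb at 1.37% or less.

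**Figure D2:**
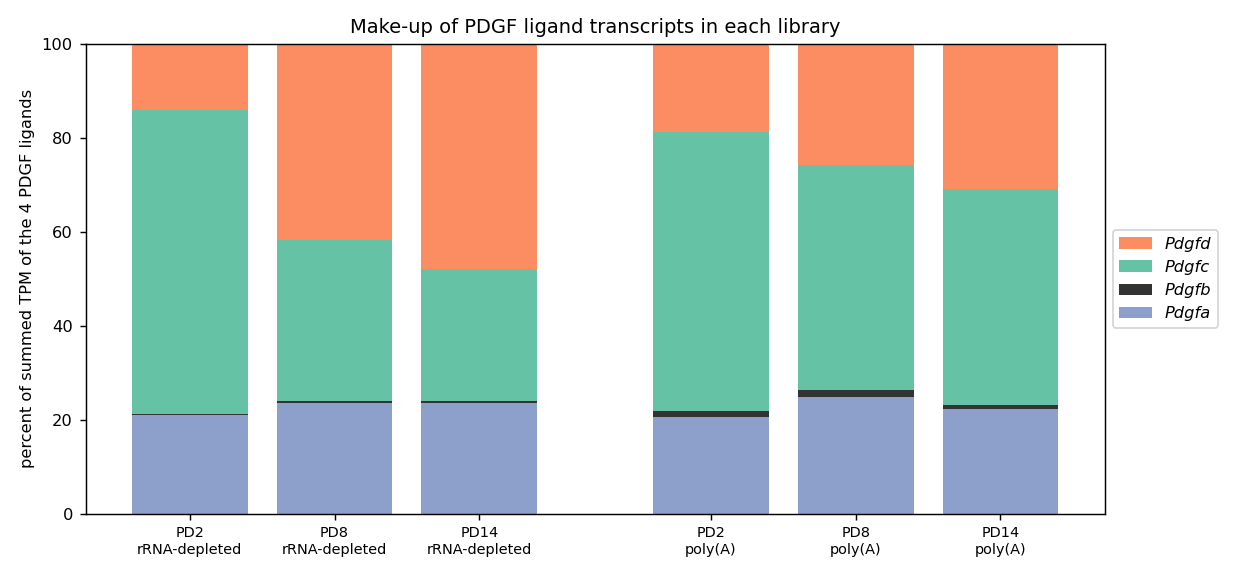
Share of each PDGF ligand gene in the summed TPM of the 4 ligand genes (vertical axis, percent) in each of the 6 libraries, which run from PD2 to PD14 within each library method. The Pdgfc share shrinks from PD2 to PD14 as the Pdgfd share grows, by more in the rRNA-depleted libraries (Pdgfd at 47.9% at PD14) than in the poly(A) libraries (31.0%).

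By mean TPM the kinase receptor genes Pdgfrb and Pdgfra were the most abundant members at every passage. Pdgfrb, on chromosome 18 (61045150 to 61085061), encodes the beta receptor, a marker of fibroblasts and pericytes. It had 198, 228 and 247 TPM over PD2, PD8 and PD14 with rRNA depletion and 229, 193 and 237 TPM with poly(A) selection. Its level exceeded that of at least 93.8% of the genes tested in each library. Both PD14 libraries were above both PD2 libraries, yet the fitted change of 0.18 ± 0.15 (adjusted p = 0.434) did not pass, with a 95% interval from -0.19 to 0.56 on the log2 scale.

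Pdgfra, on chromosome 5 (75152292 to 75198215), encodes the alpha receptor and had the lowest value of each method at PD8 and the highest at PD14. It had 155, 110.3 and 246 TPM over PD2, PD8 and PD14 with rRNA depletion and 77.1, 64.3 and 88.5 TPM with poly(A) selection. PD14 against PD2 was at 0.43 ± 0.19 (adjusted p = 0.193), and the libraries of those groups overlapped across methods. PD8 against PD2 was at -0.37 ± 0.19 and PD14 against PD8 at 0.80 ± 0.19, with the same sign in both methods. The late step was larger than that of all but 1.93% of genes, but its adjusted p was 0.866. The difference between the late and the early step was 1.17 ± 0.33, with an unadjusted p of 0.0148 and an adjusted p of 0.9996. Exons of Pdgfra share 456 bases with Gm42802 and 166 with Gm42803 on the opposite strand and 30 with Mir7025, so its values are uncertain to that extent.

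The ratio of Pdgfra to Pdgfrb TPM was likewise lowest at PD8 and highest at PD14 in both methods. It was 0.783, 0.484 and 0.993 over PD2, PD8 and PD14 with rRNA depletion and 0.337, 0.334 and 0.373 with poly(A) selection. Both genes were thus close to level in 1 library, the rRNA-depleted library of PD14, and Pdgfrb was the more abundant in the other 5. Their summed TPM were 354, 338 and 493 with rRNA depletion and 306, 257 and 326 with poly(A) selection.

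Pdgfrl, on chromosome 8 (40926212 to 40990785), rose between PD2 and PD14. It had 29.8, 45.7 and 61.4 TPM over PD2, PD8 and PD14 with rRNA depletion and 23.5, 40.5 and 60.4 TPM with poly(A) selection. The groups did not overlap at any step, and the methods were close to each other throughout. PD14 against PD2 was at 1.17 ± 0.14 on the log2 scale, a 2.25-fold rise in TPM + 1 (adjusted p = 0.0208), at 1.02 in the rRNA-depleted pair and 1.33 in the poly(A) pair, and its p ranked 227 among the 13332 genes. PD8 against PD2 was at 0.68 ± 0.14 (adjusted p = 0.122) and PD14 against PD8 at 0.49 ± 0.14 (adjusted p = 0.866). The F test of any change among the 3 passages gave an adjusted p of 0.0520, where 1.46% of all genes and 0 members passed in limma; 4 members had an unadjusted p under 0.05, as did 24.2% of all genes. The size of the change held between 1.054 and 1.289 whichever library was left out, but the call was lost without the block for library method (1.17, adjusted p = 0.232), without either PD8 library (adjusted p = 0.0717 for the rRNA-depleted and 0.0751 for the poly(A) one) and without either PD14 library (adjusted p = 0.0555 and 0.0905).

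**Figure D3:**
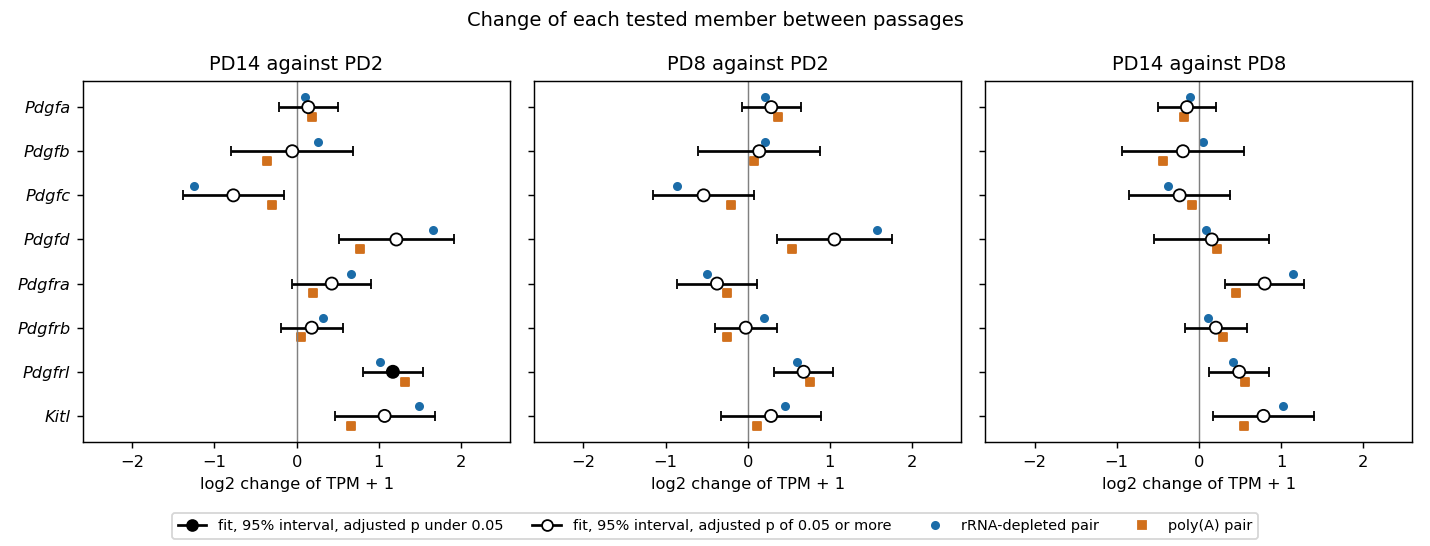
Change of log2(TPM + 1) (horizontal axes) for the 8 tested members in 3 comparisons, with the limma fit and its 95% interval as large circles, filled where the adjusted p is under 0.05, and the change within each library method as small symbols. Pdgfrl in PD14 against PD2 is the single filled circle, and its rRNA-depleted and poly(A) values (1.02 and 1.33) lie close together, while those of Pdgfd, Kitl and Pdgfc lie apart.

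Kitl, on chromosome 10 (100015630 to 100100416), encodes KIT ligand and was highest at PD14 in both methods. It had 24.2, 33.6 and 69.4 TPM over PD2, PD8 and PD14 with rRNA depletion and 7.10, 7.74 and 11.8 TPM with poly(A) selection. Within each method PD14 was above PD2 and PD8, but the poly(A) library of PD14 was below every rRNA-depleted library, so the groups overlapped. The PD14 against PD2 change was 1.07 ± 0.24 (adjusted p = 0.0511), at 1.48 in the rRNA-depleted pair and 0.66 in the poly(A) pair. It was past the threshold when 0.1 was added to TPM (1.12, adjusted p = 0.0472), when genes had to reach 1 TPM in all 6 libraries (1.07, adjusted p = 0.0470) and without the PD2 poly(A) library (1.37, adjusted p = 0.0304). Over the libraries left out, the change ranged from 0.75 to 1.40. In contrast to Pdgfd, the larger value belonged to the late step, with 0.79 ± 0.24 for PD14 against PD8 and 0.28 ± 0.24 for PD8 against PD2, and the difference between the steps had an adjusted p of 0.9996 (unadjusted p = 0.278). Kitl transcripts that encode a membrane-bound ligand and those that encode a shed one are pooled in the gene's TPM.

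Kit, on chromosome 5 (75574916 to 75656722), was close to 0. It had 1.29, 0.441 and 0.469 TPM over PD2, PD8 and PD14 with rRNA depletion and 0.385, 0.119 and 0.491 TPM with poly(A) selection. The highest value was the rRNA-depleted library of PD2, the only library above 1 TPM. In the fit without a filter on low values, PD14 against PD2 was at -0.27 ± 0.20 (adjusted p = 0.456). The TPM of Kitl was 18.8, 76.3 and 147.9 times that of Kit over PD2, PD8 and PD14 with rRNA depletion and 18.4, 65.0 and 23.996 times in the poly(A) libraries.

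Most defining genes of mast cells, melanocytes and germ cells, which are known for KIT, were at or near 0 as well. Of 9 mast cell markers, Tpsb2 and Fcer1a were listed at 0 in every library and Mcpt4, Cpa3 and Cma1 stayed at or below 0.873 TPM; Gata2, which other cells also express, was the single one tested (0.63 ± 0.47). The summed mast cell level was 30.9 and 8.67 TPM at PD14, against 11.5 and 8.22 TPM at PD2, with the rRNA-depleted library first here and in later pairs of values, and nearly all of it was Gata2 (30.4 and 7.05 TPM at PD14, against 11.3 and 7.61 TPM at PD2). Of 9 melanocyte markers 4 were tested and 0 passed in limma (2 had an unadjusted p under 0.05, a share of 32% among all genes), with Sox10 at -0.95 ± 0.30 and Pmel at 0.89 ± 0.27 (105 bases shared with Dgka), Tyr listed at 0 throughout, Mitf the highest with up to 13.3 TPM, and a sum of 16.1 and 13.3 TPM at PD14 against 17.6 and 9.41 TPM at PD2. Of 8 germ and pluripotent cell markers 2 were tested and 0 passed in limma, also at an unadjusted p under 0.05, with Ddx4 at 1.25 ± 0.51 and Prdm1 at 0.36 ± 0.75, Pou5f1 listed at 0, and a sum of 7.86 and 11.3 TPM at PD14 against 3.48 and 3.10 TPM at PD2. Ddx4 had 7.12 and 0.534 TPM at PD14, against 0.746 and 0.262 TPM at PD2. Prdm1 had 0.382 and 9.99 TPM at PD14, against 2.18 and 1.89 TPM at PD2.

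Markers of the usual makers of PDGF-B spanned a wide range of levels. As background for the calls in this paragraph, 11.2% of all genes passed in PD14 against PD2. Among 12 endothelial markers 7 were tested, with a median of -0.75. Kdr (-1.38 ± 0.24) and Flt1 (-0.75 ± 0.17) fell, while Erg (-1.09 ± 0.40) and Emcn (-0.94 ± 0.28) did not pass. Egfl7 (0.44 ± 0.21, 264 bases shared with Gm20532 on the same strand), Esam (0.36 ± 0.35) and Tek (0.33 ± 0.37) had positive values that did not pass. Cldn5 was listed at 0, and Pecam1 and Cdh5 were at or below 0.386 TPM. Flt1 was the most abundant endothelial marker, at 13.0 and 62.7 TPM at PD14, against 25.5 and 94.6 TPM at PD2. Erg had 10.03 and 0.882 TPM at PD14, against 16.2 and 4.46 TPM at PD2. The sum of the endothelial markers was 39.4 and 78.0 TPM at PD14, against 56.2 and 117 TPM at PD2. Among 12 blood cell and megakaryocyte markers 9 were tested, with a median of -0.12. Cd34 rose (1.02 ± 0.22, 148 bases shared with the antisense gene Gm16897), while Ppbp (1.80 ± 0.89) and Adgre1 (1.08 ± 0.77) did not pass. Pf4 (-0.73 ± 0.27), Cd68 (-0.41 ± 0.41), Csf1r (-0.23 ± 0.36), Ptprc (-0.23 ± 0.34) and Spi1 (-0.12 ± 0.48) had negative values that did not pass. Itga2b was at 0.02 ± 0.27. Ppbp had 6.82 and 35.7 TPM at PD14, against 5.66 and 2.56 TPM at PD2, Adgre1 had 2.09 and 34.4 TPM at PD14, against 2.65 and 5.69 TPM at PD2, and Cd34 had 23.9 and 21.6 TPM at PD14, against 9.39 and 12.2 TPM at PD2. Gata1 and Gp9 stayed at or below 0.291 TPM. The sum of the blood cell and megakaryocyte markers was 48.6 and 122 TPM at PD14, against 44.4 and 46.1 TPM at PD2. Pdgfb itself had 0.612 and 1.20 TPM at PD14, against 0.350 and 1.83 TPM at PD2. The part of these cells in the Pdgfb values was not tested.

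Of 12 pericyte and mural markers, which share Pdgfrb with fibroblasts, 9 were tested: Notch3 rose (1.67 ± 0.22; 488 bases shared with the antisense gene Gm17276), Des (-3.98 ± 0.28; 220 bases shared with Gm15179) and Mcam (-0.70 ± 0.14) fell, and Higd1b was listed at 0. The median over the 9 was -0.16. The sum was 929 and 3094 TPM at PD14, against 2267 and 6388 TPM at PD2, and most of it was Acta2. Acta2 had 798 and 2885 TPM at PD14, against 2120 and 6119 TPM at PD2, and its change of -1.25 ± 0.29 did not pass. As background for both lists of this paragraph, 11.2% of all genes passed. Of 9 epithelial markers 3 were tested, and Krt19 (-2.45 ± 0.47) and Krt18 (-2.42 ± 0.31) fell, with a sum of 5.21 and 2.37 TPM at PD14 against 22.7 and 40.0 TPM at PD2.

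The order of the members by mean TPM changed between passages. At PD2 it was Pdgfrb, Pdgfra, Pdgfc, Pdgfa, Pdgfrl, Pdgfd, Kitl, Pdgfb and Kit. Pdgfra could not be separated there from Pdgfc, nor could the run from Pdgfa to Kitl or the pair of Pdgfb and Kit, since the libraries of neighbours overlapped. At PD8 Pdgfd and Pdgfrl stood above Pdgfa, and the neighbours Pdgfra, Pdgfc, Pdgfd and Pdgfrl overlapped in turn. At PD14 Pdgfrl stood at 60.9 ± 0.76 TPM (SD, n = 2), behind Pdgfrb and Pdgfra, whose libraries overlapped at that passage. Pdgfd (51.6 ± 10.8), Pdgfc (49.9 ± 21.4), Kitl (40.6 ± 40.7) and Pdgfa (30.4 ± 1.81) followed, with overlap between each and the next. Pdgfb and Kit were last at every passage.

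Several members differed more between the library methods than between passages. The rRNA-depleted over poly(A) ratio of Kitl TPM was 3.40 at PD2, 4.34 at PD8 and 5.89 at PD14, and 1.76% of the genes tested had a larger mean gap. That of Pdgfra was 2.02, 1.71 and 2.77, exceeded by 9.47% of genes. Pdgfb went the other way, at 0.191, 0.282 and 0.508. Pdgfrb (0.867 to 1.18), Pdgfrl (1.02 to 1.27) and Pdgfa (0.867 to 0.972) stayed near 1. The gap of Pdgfc moved with passage, at 1.04, 0.656 and 0.534, and so did that of Pdgfd, at 0.711, 1.48 and 1.35. Over all genes the median gap was 0.04 on the log2 scale, with 5% of genes below -1.06 and 5% above 1.43. With 1 library per method in each group, method, sequencing run and culture cannot be told apart.

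**Figure D4:**
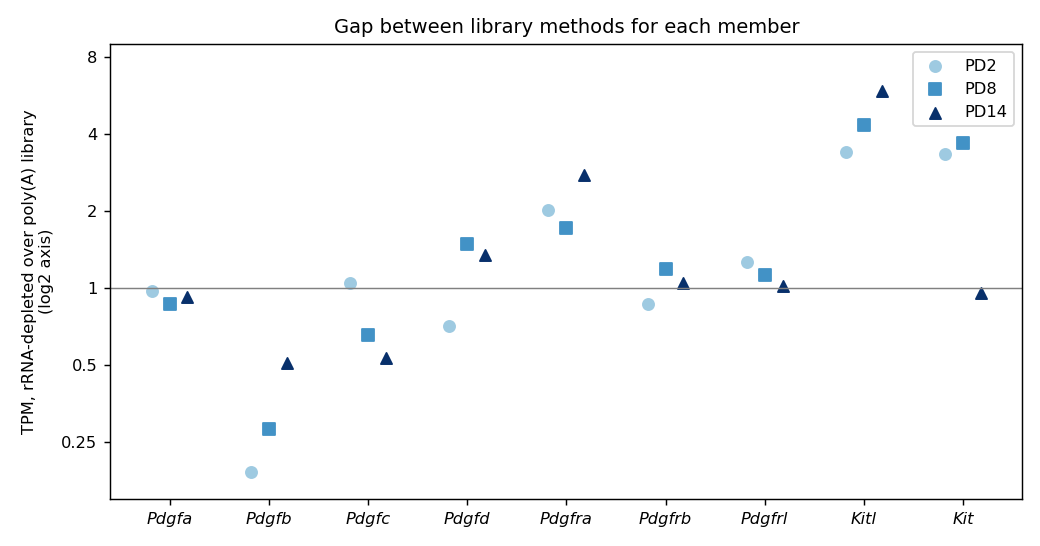
TPM in the rRNA-depleted library over TPM in the poly(A) library of the same passage (vertical axis, log2 scale) for each member, with 1 point per passage; the grey line marks equal TPM. Kitl lies at 3.40 to 5.89 and Pdgfra at 1.71 to 2.77, Pdgfb lies at 0.191 to 0.508, and Pdgfa, Pdgfrb and Pdgfrl stay close to 1.

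Read step by step, the tested members gave no call. In PD8 against PD2, 0 of 8 passed in limma, against 0.0225% of all genes (3 genes), and 2 members (Pdgfd and Pdgfrl) had an unadjusted p under 0.05, where 20.3% of all genes did. Without the PD2 poly(A) library Pdgfd passed there, at 1.54 (adjusted p = 0.0235). In PD14 against PD8, 0 of 8 members and 0% of all genes passed, and 3 members (Pdgfra, Pdgfrl and Kitl) had an unadjusted p under 0.05, where 5.6% of all genes did. For the difference between the steps 0 of 8 and 0% of all genes passed, with Pdgfra as the 1 member at an unadjusted p under 0.05, where 4.25% of all genes were. In PD14 against PD2, both PD14 libraries lay above both PD2 libraries, across methods, for 4 of the 8 (Pdgfa, Pdgfd, Pdgfrb and Pdgfrl) and for 22.4% of all genes, and below them for Pdgfc and for 15.8% of all genes. Within each method Pdgfra and Kitl were higher at PD14 as well. In PD8 against PD2 the members without such overlap were Pdgfa, Pdgfd and Pdgfrl, higher like 19.5% of all genes, and Pdgfc, lower like 13.7%. In PD14 against PD8 they were Pdgfrb and Pdgfrl, higher like 8.12% of all genes, and 0 members were lower, against 7.07%.

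Genes taken to act around the receptors were read from lists, and these data do not show that each of them acts on PDGF or KIT. Of 11 enzymes listed as processing or shedding the ligands, 1 rose and 1 fell over the whole span, where 11.2% of all genes passed. Their median was 0.17. Pcsk6, a proprotein convertase, was at 1.73 ± 0.29 (adjusted p = 0.0312; 156 bases shared with Gm45213). It had 49.7 and 22.1 TPM at PD14 against 11.7 and 7.35 TPM at PD2. Klk8, a serine protease, fell by 1.17 ± 0.24 (adjusted p = 0.0427; 382 bases shared with the transcript 2310002F09Rik). No source used here shows that Klk8 cuts a PDGF or KIT ligand. The tissue activator Plat, which activates PDGF-C, was at -0.54 ± 0.15 (adjusted p = 0.0767), and Plau, the urokinase that activates PDGF-D, was at 0.17 ± 0.28.

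Of 11 genes listed as binding partners and co-receptors 2 rose and 1 fell, where 11.2% of all genes passed. Their median was 0.54, and 10 had an unadjusted p under 0.05, where 32% of all genes did. Nrp1, a co-receptor for PDGF and VEGF, had 244 and 153 TPM at PD14, against 116 and 88.1 TPM at PD2, a change of 0.92 ± 0.13 (adjusted p = 0.0244). Gas1, a membrane protein of growth arrest, rose by 1.06 ± 0.17 (adjusted p = 0.0312; 589 bases shared with Gm48488). It was placed in this list, but no source used here shows that it binds PDGF. The integrin gene Itgb3 fell by 1.24 ± 0.24 (adjusted p = 0.0400), and the proteoglycan gene Cspg4, whose product binds PDGF-AA, was at -1.34 ± 0.47 (adjusted p = 0.125). Sparc, whose product binds PDGF-B, was at 0.67 ± 0.22 (adjusted p = 0.109).

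Of 27 adaptors and effectors that act next to the receptors 2 rose and 2 fell, where 11.2% of all genes passed. Their median was 0.03. Pik3r1, a regulatory subunit of PI3-kinase, had 248 and 55.0 TPM at PD14, against 92.5 and 30.5 TPM at PD2, and rose by 1.12 ± 0.17 (adjusted p = 0.0281). Stat5a, a transcription factor that KIT and cytokine receptors activate, rose by 1.10 ± 0.15 (adjusted p = 0.0221; 72 bases shared with Stat3). Fyn, a kinase of the Src family, fell by 0.88 ± 0.16, and Rasa1, a brake on RAS that docks on the beta receptor, by 0.87 ± 0.16 (adjusted p = 0.0370 and 0.0371; Rasa1 shares 12 bases with Ccnh).

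Of 22 negative regulators 0 passed in limma, against 11.2% of all genes, with a median of -0.22. An unadjusted p under 0.05 was found for 2 of them, against 32% of all genes. The largest values were those of the phosphatase gene Dusp4 (-1.13 ± 0.49) and the cytokine inhibitor gene Socs1 (1.09 ± 0.35). Dusp4 had 2.43 and 48.5 TPM at PD14, against 14.7 and 50.8 TPM at PD2, so its fall lay mainly in the rRNA-depleted pair. Socs1 had 10.6 and 27.5 TPM at PD14, against 7.58 and 7.56 TPM at PD2, so its rise lay mainly in the poly(A) pair. Among 20 early response genes of PDGF-treated fibroblasts 1 passed, against 11.2% of all genes, and the median was -0.43. It was the cyclin gene Ccnd1, which rose by 1.17 ± 0.22 (adjusted p = 0.0391, 1100 bases shared with LTO1 on the other strand). Cxcl1 and Fosb had the largest values (3.08 ± 0.92 and -2.85 ± 1.60) and did not pass. Cxcl1 had 217 and 483 TPM at PD14, against 109 and 12.5 TPM at PD2. Fosb had 1.95 and 1.52 TPM at PD14, against 133 and 1.87 TPM at PD2, so its fall lay mainly in the rRNA-depleted pair. The summed level of the list fell with rRNA depletion (2430 to 1445 TPM) and rose with poly(A) selection (1651 to 7131 TPM). Ccl2 alone had 2922 TPM in the poly(A) library of PD14, against 317 TPM in that of PD2.

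Of 5 relatives of the members in the same receptor class 4 were tested and 2 rose, both of them ligand genes, where 6.41% of all genes were called higher. The median was 1.23. Csf1, the macrophage growth factor that binds CSF1R, had 508 and 387 TPM at PD14, against 111 and 183 TPM at PD2, and rose by 1.63 ± 0.33 (adjusted p = 0.0421). Flt3l, the ligand of FLT3, had 29.8 and 17.0 TPM at PD14, against 9.48 and 8.15 TPM at PD2, and rose by 1.26 ± 0.24 (adjusted p = 0.0397; 856 bases shared with Gm45713 on the same strand). Il34, the other ligand of CSF1R, was at 1.19 ± 0.28 (adjusted p = 0.0561; 75 and 22 bases shared with antisense genes). Their receptors were low: Flt3 reached at most 0.0274 TPM, and Csf1r was at 1.16 and 5.59 TPM at PD14 and 2.87 and 4.08 TPM at PD2, with a fitted -0.23 ± 0.36 (873 bases shared with Hmgxb3).

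Pdgfra, Kit and Kdr follow each other on chromosome 5, with 376701 bases between the annotated ends of Pdgfra and Kit and 276105 between those of Kit and Kdr. Kdr, a VEGF receptor gene, had 0.845 and 2.10 TPM at PD14, against 4.05 and 6.65 TPM at PD2. Kdr was the 1 of 8 tested neighbours, of 11 listed, that passed, where 11.2% of all genes did. The others ranged up to 0.72 ± 0.19 for Scfd2 (adjusted p = 0.0716), and the median of the neighbours was 0.09. Kdr stands in the endothelial list as well.

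**Figure D5:**
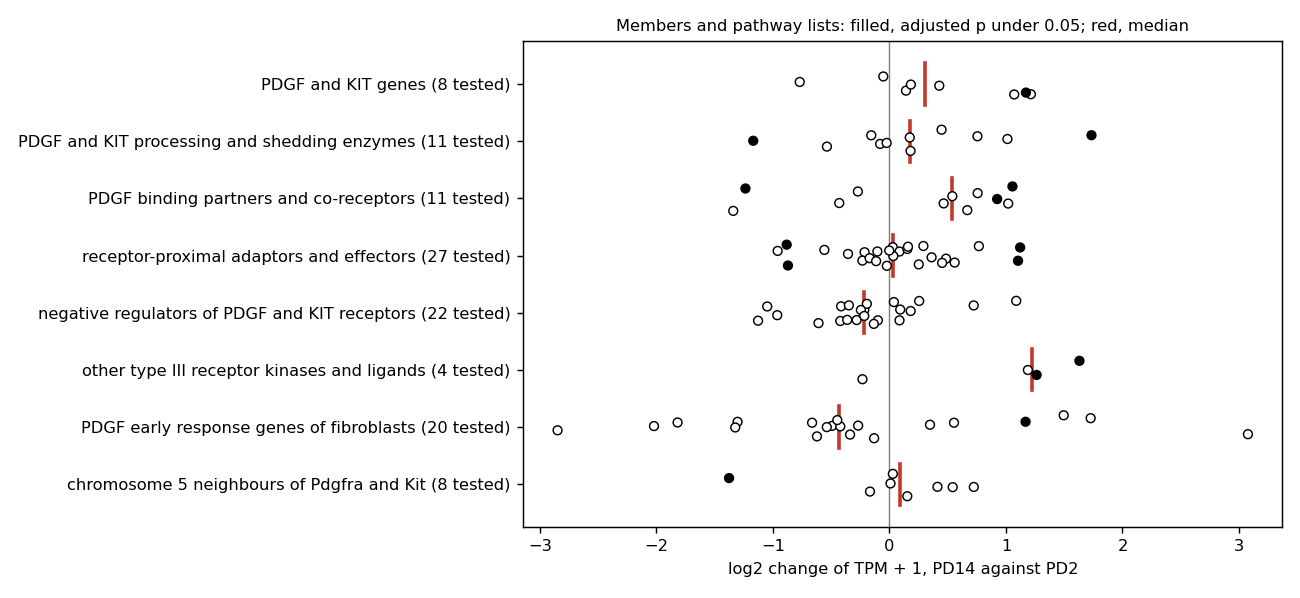
Change of log2(TPM + 1) in PD14 against PD2 (horizontal axis) for each tested gene of the PDGF and KIT set and of 7 lists around it, filled where the adjusted p is under 0.05, with the median of each list as a red bar. List medians run from -0.43 for the early response genes to 1.23 for the other type III receptor kinases and ligands, and between 0 and 4 genes of each are filled.

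Genes whose course over the libraries was most like that of a member were found among 10679 genes with a mean of at least 5 TPM. The measure was the root mean square difference of log2(TPM + 1), centred within each method, over the 6 libraries. For Pdgfrl they were P4ha3 (0.039), Ninl (0.041) and Upp2 (0.049). For Kitl they were Ankrd24 (0.062), Igf1 (0.090) and Adamts9 (0.095), and for Pdgfd Aqp1 (0.097), Serpinb8 (0.12) and Kctd1 (0.12). For Pdgfc they were Mis18a (0.042), Gsr (0.055) and Atp6v0e2 (0.058). Those of Pdgfra were Khk (0.10), Mob2 (0.12) and Tgfbrap1 (0.14), of which Khk had 12.4 and 12.0 TPM at PD14 and 6.36 and 9.55 TPM at PD8. Of these genes, Ninl, Adamts9, Kctd1 and Tgfbrap1 share exon bases with other genes, so their values are uncertain. Pdgfa, Pdgfb and Pdgfrb spanned less than 1 on this scale, and no likeness was sought for them.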

How the data were processed

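The authors deposited TPM (abundances scaled to transcript length and library total) for each gene symbol. Per the submitters' processing notes, which give no roles, the tools were StringTie 1.3.1c, HISAT2 2.0.5, cutadapt 1.14 and bcl2fastq, and the build was mm10. Gene annotation and strand setting are not given in the sources used here. Positions and shared exon bases came from GENCODE M21, and promoter windows from RefSeq. From the deposited TPM, log2(TPM + 1) was computed, which understates changes of low genes.

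Genes with at least 1 TPM in at least 2 libraries were fitted with limma 3.58.1 in R 4.3.3, with a term per passage and library method as a block, since the labels tie replicate number to method. Deviations from the group means correlated between passages within a method at 0.664 to 0.854 across genes. The fit had 2 residual and 3.22 prior degrees of freedom and a mean-variance trend. P-values were two-sided and Benjamini-Hochberg adjusted over all 13332 genes, threshold 0.05. Errors written ± after a log2 change are standard errors, n = 2 libraries per group. Where 2 values are given per passage without a label, the rRNA-depleted library comes first. The code was tested on simulated data.

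Members and lists were chosen with earlier results of these data known. All 9 members are named. Of each list, the 2 genes with the largest change are named, and as examples other genes that passed; Dpt, Col3a1 and 10 proliferation genes that passed are given only in counts. Plat, Plau, Sparc, Il34, Csf1r, Flt3, Mitf and the markers at or near 0 were named after their values were seen. So were Acta2, Ccl2, Twist2, Fap, Thy1, Prrx1, Emcn, Egfl7, Esam, Tek, Pf4, Cd68, Ptprc, Spi1 and Itga2b. Alternatives were other pseudocounts, filters, scalings and variance models, no block, and each library left out.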

Additional observations from a re-analysis of the deposited data

Results flagged for a closer look

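Of the 9 genes, 3 had values of opposite sign in the early and the late step, in both library methods. The share of all genes with this pattern was not counted. Pdgfra was lower at PD8 than at PD2 (-0.49 with rRNA depletion and -0.26 with poly(A) selection) and higher at PD14 than at PD8 (1.15 and 0.45), so that the late step exceeded the early one by 1.17 (limma, unadjusted p = 0.0148, adjusted p = 0.9996). Pdgfa was higher at PD8 than at PD2 (0.21 and 0.37) and lower at PD14 than at PD8 (-0.10 and -0.19), a difference of -0.43 (adjusted p = 0.9996). Kit was lower at PD8 than at PD2 (-0.67 and -0.31) and higher at PD14 than at PD8 (0.03 and 0.41). The difference was 0.71 (limma, adjusted p = 0.997 in the fit without a filter on low values). Its late step with rRNA depletion ran from 0.441 to 0.469 TPM, below the limit of the main test.

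The library methods gave opposite signs from PD2 to PD14 for 2 genes. For Pdgfb the rRNA-depleted change of 0.26 exceeded the poly(A) change of -0.36 by 0.62. For Kit the values were -0.64 and 0.11, a difference of -0.74. With 1 library of each method per passage, these differences were not tested.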

How the results depend on the processing

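Under the settings other than left-out libraries, all changes of single members kept their direction, except that of Pdgfb in PD14 against PD2, at 0.047 with a pseudocount of 0.1. The number of members past the threshold in PD14 against PD2 was 1. It was 0 without the replicate block, 2 with a pseudocount of 0.1 and 3 when genes had to reach 1 TPM in all 6 libraries. Over the libraries left out it ranged from 0 to 4 there, from 0 to 1 in PD8 against PD2 and in the F test of any change, and was 0 in PD14 against PD8 and between the steps. The F test gave 1 member (Pdgfrl) when genes had to reach 1 TPM in all 6 libraries and 1 under quantile normalization. Of all genes, 1490 were past the threshold in PD14 against PD2, but 0 without the replicate block, 404 without a filter on low values and 938 without the mean-variance trend. Leaving out 1 library gave between 0 (without the rRNA-depleted library of PD14) and 1793 (without that of PD2); without the PD8 rRNA-depleted, PD8 poly(A) or PD14 poly(A) library it gave 25, 20 and 5. The main split was 854 higher and 636 lower, against 736 and 834 under quantile normalization. The causes were not tested.

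With 1 library left out, 10 of 144 member values turned sign, all of them uncalled. Pdgfb ranged from -0.33 to 0.22 in PD14 against PD2, from -0.048 to 0.33 in PD8 against PD2 and from -0.47 to 0.082 in PD14 against PD8. Kitl ranged from -0.011 to 0.58 and Pdgfrb from -0.20 to 0.15 in PD8 against PD2. Pdgfc ranged from -0.54 to 0.076 and Pdgfd from -0.13 to 0.45 in PD14 against PD8. Depth is unknown, so no counting error can be given for Kit or Pdgfb, the lowest members.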
